A study of Mus musculus with 24 samples.

Results

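Mir124a-1hg, Mir124-2hg, and Mir9-3hg are 3 long non-coding genes of the mouse that carry a hairpin of the neuronal microRNAs (miRNAs) miR-124 or miR-9 inside their transcribed region. They were chosen from earlier results of the same peak lists, so that the presence of peaks at these genes is a description and was not tested. The members' peaks were all peaks that overlapped the gene body in GENCODE vM21 or the 20 kb on either side by at least 1 base. There were 260 such peaks among 314954 peaks in 6 lists.

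The lists came from chromatin immunoprecipitation sequencing (ChIP-seq) of the cortex of wild-type mouse embryos at 2 stages, E15.5 and E18.5 (days of embryonic development), with no genotype or treatment contrast. The profiled proteins were 3 transcriptional regulators (TRs). ARID1B belongs to the BAF complex, which remodels chromatin, FOXP1 is a forkhead transcription factor, and TCF7L2 is a transcription factor of the Wnt pathway. The sample labels call the last of these TCF4, and the study lists an anti-TCF7L2 antibody. The 24 libraries were 2 of ChIP and 2 of input for every TR and stage, and there was 1 list of peaks per TR and stage. Every list is filed under replicate 1, whereas the study's methods describe calling peaks per replicate and again on merged replicates for later use. The lists were read as those of merged replicates, which the lists do not themselves state. A value below is 1 value per TR and stage with no replicate error in either case. Intervals are exact 95% Poisson intervals on the reads at a summit and cover counting error only. The tissue holds progenitors, neurons, and other cells, and more cells bound or more binding per cell cannot be told apart.

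A miRNA host gene is transcribed as a long RNA, from which DROSHA and DGCR8 cut the hairpin and DICER1 releases the mature miRNA. miR-124 is abundant in neurons and represses genes of the non-neuronal state, among them Ptbp1, a splicing regulator. miR-9 acts in both neural progenitors and young neurons, and its targets include Foxp1 and Nr2e1. Both miRNA families are transcriptional targets of the repressor REST, and both repress Actl6a, the BAF subunit that neural progenitors exchange on leaving the cell cycle. Both miRNAs have several gene copies, which give the same mature molecule from different chromosomes.

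The mature sequences of miR-9 are shown first, because the copy in Mir9-3hg shares them with Mir9-1 and Mir9-2. The sequences are from RefSeq (GRCm38.p6), written 5′ to 3′, with the seed (bases 2 to 8) in capitals.
mmu-miR-9-5p: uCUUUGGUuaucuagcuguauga
mmu-miR-9-3p: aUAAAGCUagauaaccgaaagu

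The hairpins show how the copies differ. Capitals mark the 2 mature arms, which are the same in all 3, while the 16 bases between the arms of Mir9-3 and Mir9-1, and the 14 bases of Mir9-2, differ. All 3 lie on the + strand, Mir9-3 at chr7:79505264-79505353, Mir9-1 at chr3:88215598-88215686, and Mir9-2 at chr13:83738814-83738885.
Mir9-3: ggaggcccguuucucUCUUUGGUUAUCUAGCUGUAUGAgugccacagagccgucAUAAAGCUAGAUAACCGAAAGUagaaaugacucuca
Mir9-1: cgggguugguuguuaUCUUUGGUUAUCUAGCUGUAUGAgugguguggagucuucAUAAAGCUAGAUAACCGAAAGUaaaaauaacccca
Mir9-2: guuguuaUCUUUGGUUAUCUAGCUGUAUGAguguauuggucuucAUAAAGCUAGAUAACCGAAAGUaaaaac

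Of the 3 host genes, Mir9-3hg held by far the most peaks. Its window of 74.4 kb held 178 of the 260 peaks, against 45 in the 46.6 kb of Mir124a-1hg and 37 in the 59.0 kb of Mir124-2hg. By summit, the point of highest read coverage, 49 of the 260 lay in an exon of the member, 100 in an intron, 43 upstream of the gene, and 68 downstream of it. Over the 3 windows the peaks numbered 46 for ARID1B, 53 for FOXP1, and 39 for TCF7L2 in the E15.5 lists, followed by 55, 14, and 53 at E18.5. The lists themselves held 71411, 64059, and 32992 peaks at E15.5, followed by 68447, 24872, and 53173 at E18.5, so that the FOXP1 list of E18.5 was the shortest in the windows and in the genome. For this list the smaller library, ChIP or input, was estimated from the background at 26.3 M reads, against 57.3 to 80.7 M for the others. A ChIP read of this list counted as 0.561, so if the caller scaled the larger library down, the smaller one was the input. Its ChIP library was then estimated at 46.9 M reads, against 57.3 to 94.3 M for the other ChIP libraries. Enrichment is given throughout as the fold of reads at the summit over background, and the lowest fold in that list was 3.21, against 2.33 to 2.66 in the other 5.

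**Figure D1:**
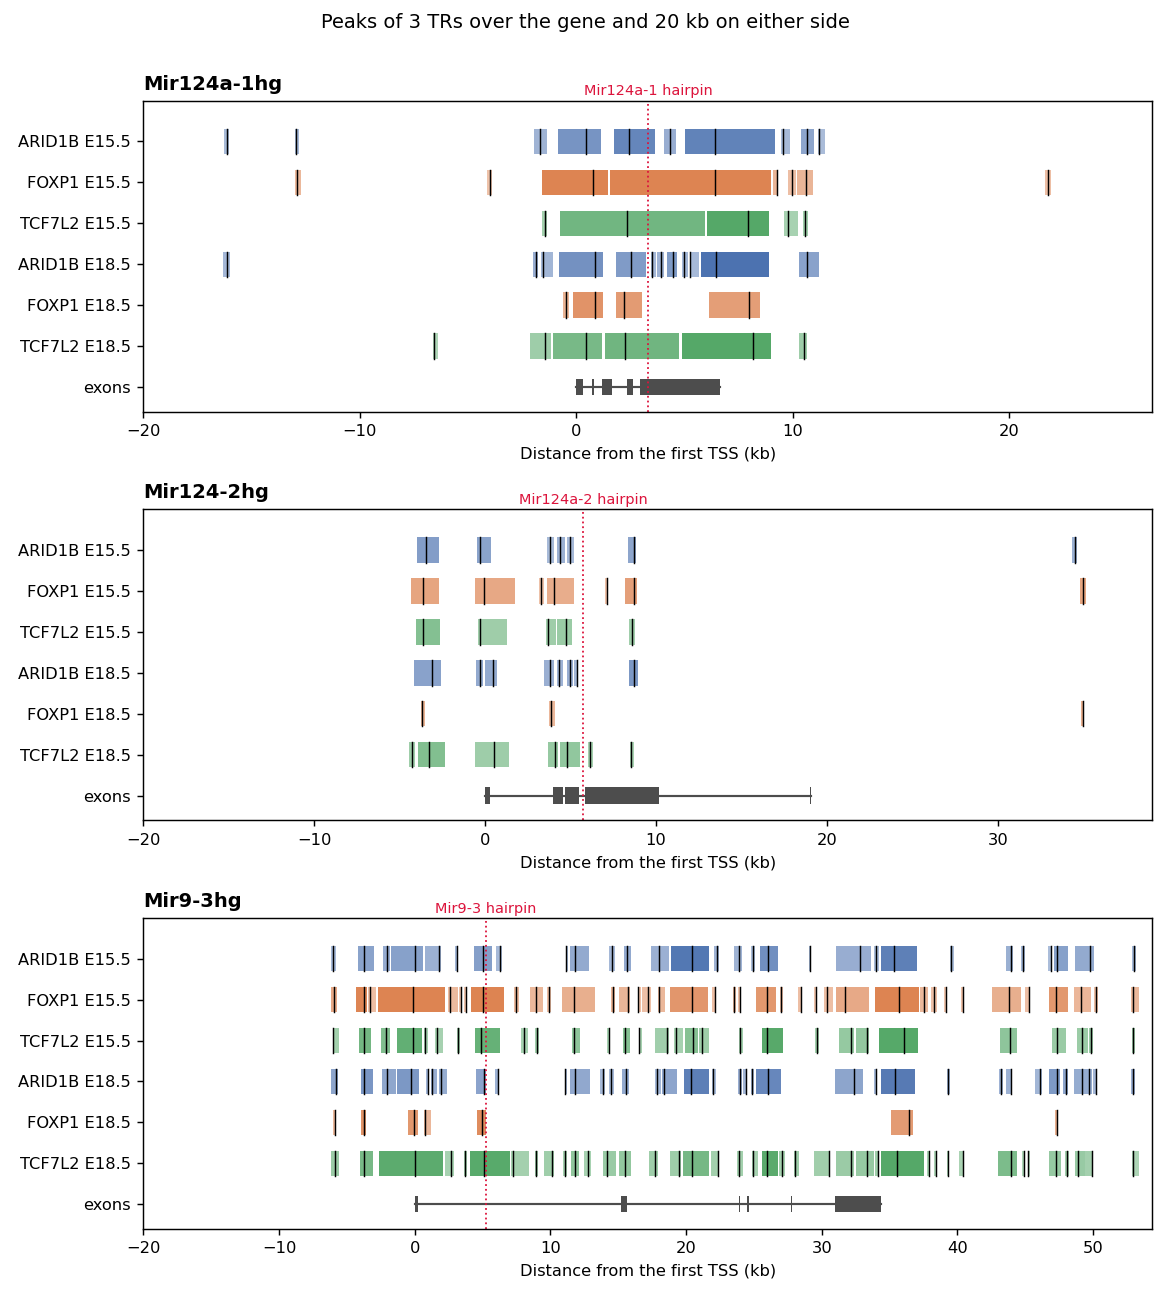
Peaks of ARID1B, FOXP1, and TCF7L2 in each list (rows) over each member, with the distance from its first transcription start site (TSS) in kb on the x axis. Bars are peaks, darker with a higher fold, black ticks are summits, grey boxes are exons, and the dotted line is the miRNA hairpin. Mir9-3hg has 178 peaks, Mir124a-1hg 45, and Mir124-2hg 37.

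A peak somewhere in such a window was common among genes of this kind. All 3 members had one in all 6 lists, and so did 4504 of 10155 long non-coding genes (44.4%). The number of peaks for the length of the window set Mir9-3hg apart more than the presence of a peak. At E15.5 it held 3.90 peaks per 10 kb for ARID1B, 5.11 for FOXP1, and 3.90 for TCF7L2, and at E18.5 it held 4.71, 0.941, and 5.38. The median over all long non-coding windows was between 0 and 0.247 in the 6 lists. In the 5 lists other than FOXP1 at E18.5, between 1 and 8 of the 10155 windows were denser than that of Mir9-3hg. For FOXP1 at E18.5, 276 were denser. Within 20 kb of the hairpin, Mir9-1 and Mir9-2 had 122 and 107 peaks over all lists, against 105 for Mir9-3. A large number of peaks was thus not particular to this miR-9 copy. Mir124a-1hg lay between the percentiles 92.3 and 99.3 of this ranking and Mir124-2hg between 90.6 and 94.2.

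**Figure D2:**
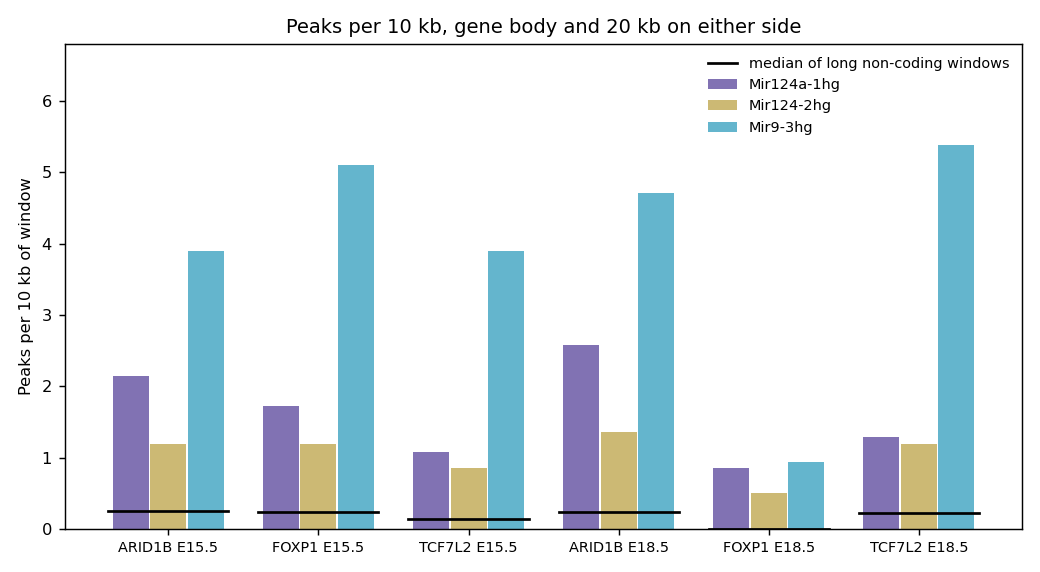
Peaks per 10 kb of window (y axis) for the 3 members in each list (x axis), with the median over all 10155 long non-coding windows as a black line. Mir9-3hg is the highest bar in every list, from 0.941 for FOXP1 at E18.5 to 5.38 for TCF7L2 at E18.5.

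Mir124a-1hg (ENSMUSG00000097545.7) lies on the + strand at chr14:64587331-64593961 in GRCm38, and its hairpin Mir124a-1 at chr14:64590657-64590741, 3.33 kb after the first TSS. Peaks of all 6 lists joined there into 1 stretch of 11476 bp, from -2128 to +9347 bp relative to the first TSS, past the end of the gene. It held 29 peaks, of which 15 were wider than 95% of the peaks of their list, while the narrowest had 213 bp. The widest had 7436 bp for FOXP1 at E15.5 and 6708 bp for TCF7L2 at E15.5, wider than 99.99% and 99.997% of the peaks in those lists.

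Of these 29 peaks, 16 had their summit shortly after the first TSS, before the hairpin, or at the 3′ end. The other 13 had folds of 2.95 to 5.61. They included a FOXP1 peak of E18.5 461 bp before the first TSS with a fold of 4.38, and 5 peaks of 4 lists 1437 to 1853 bp before the first TSS, with folds of 3.39 to 3.93 for the strongest of each list. The place shortly after the first TSS was 450 to 864 bp after the first TSS, with a fold of 6.06 for ARID1B and 9.11 for FOXP1 at E15.5, followed by 6.31, 7.47, and 6.57 for ARID1B, FOXP1, and TCF7L2, respectively, at E18.5. TCF7L2 at E15.5 had no summit there, and its peak of 6708 bp ran across the place. The place before the hairpin was 2212 to 2537 bp after the TSS. There the fold was 7.30 for ARID1B and 7.02 for TCF7L2 at E15.5, followed by 5.47, 6.74, and 7.12 for ARID1B, FOXP1, and TCF7L2, respectively, at E18.5. FOXP1 at E15.5 covered it with the peak of 7436 bp, whose summit lay elsewhere.

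The 3′ end of the gene held the strongest peak of the window in 5 of the 6 lists. The summits of ARID1B at E15.5, FOXP1 at E15.5, and ARID1B at E18.5 fell 6404, 6433, and 6470 bp after the first TSS, in the last exon, with folds of 7.57, 11.3, and 10.4. The other 3 fell past the end of the gene, 7923 bp after the first TSS for TCF7L2 at E15.5 with a fold of 10.1, 7999 bp for FOXP1 at E18.5 with a fold of 6.44, and 8184 bp for TCF7L2 at E18.5 with a fold of 10.4. Against all peaks of their own list, the TCF7L2 peaks were at the percentiles 97.7 and 98.3 by fold, the ARID1B peaks at 92.7 and 96.8, and the FOXP1 peaks at 91.1 and 58.4. The FOXP1 list of E18.5 was the exception, with its strongest peak shortly after the first TSS instead. Weaker peaks followed 10.6 kb after the TSS, with folds of 3.68 to 4.91 in 5 lists and none for FOXP1 at E18.5.

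The Mir124a-1 hairpin itself lay wholly inside a peak in 4 lists, the 3 of E15.5 and TCF7L2 at E18.5. For ARID1B and FOXP1 at E18.5 the nearest peak ended or began 67 and 284 bp away. In every list but 1 the summit nearest to the hairpin lay before it, by 883 to 2543 bp. ARID1B at E18.5 had its nearest summit 195 bp after the start of the hairpin, in a peak with a fold of 3.09. Mir3078, another miRNA gene, lies in the same last exon, and its promoter overlaps that of the hairpin, so that it had a promoter peak in all 6 lists from the same peaks.

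Mir124-2hg (ENSMUSG00000100252.6) was the most weakly bound of the 3 genes. It lies on the + strand at chr3:17789921-17808970, with the hairpin Mir124a-2 at chr3:17795662-17795770, 5.74 kb after its first TSS. The highest fold in its window was 6.33, for FOXP1 at E15.5.

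Its most constant place was upstream of the gene. There, 3119 to 3669 bp before the first TSS, the fold was 5.35 for ARID1B, 5.82 for FOXP1, and 5.67 for TCF7L2 in the E15.5 lists. At E18.5 it was 4.91, 4.53, and 5.80. All 6 lists had it, the values lay between 4.53 and 5.82, and the counting intervals of all 6 overlapped. TCF7L2 at E18.5 had another peak just before it, with its summit 4263 bp before the TSS and a fold of 3.72. No list had a further peak upstream in the window, and the first one outside it on that side lay 137 to 153 kb from its edge, depending on the list, with folds of 3.89 to 6.68.

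At the first TSS of Mir124-2hg the fold was 4.81 for ARID1B, 5.44 for FOXP1, and 3.79 for TCF7L2 in the E15.5 lists, and 4.21 for ARID1B and 3.83 for TCF7L2 at E18.5. FOXP1 at E18.5 had no peak there. A group of 14 peaks followed, with summits 3267 to 5369 bp after the TSS, around inner start sites of shorter transcripts. The strongest peak of each list had a fold between 3.57 and 4.94 and its summit between 3851 and 4960 bp. In the exon of a single-exon transcript, 8544 to 8711 bp after the first TSS, the fold was 4.64, 6.33, and 3.68 at E15.5 and 5.75 for ARID1B and 3.17 for TCF7L2 at E18.5, where FOXP1 again had none. The hairpin of Mir124a-2 was in no peak of any list. The nearest peak was 198 bp away for TCF7L2 at E18.5, 310 bp for ARID1B at E18.5, and 547 to 1639 bp for the others.

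Mir9-3hg (ENSMUSG00000097023.8) lies on the + strand at chr7:79500026-79534403, and Mir9-3 is 5.24 kb after its first TSS, in an intron. It was bound at its start, at the hairpin, at several places in the gene body, and on both sides. Of 44 places where summits lay within 500 bp of the next, 6 were shared by all 6 lists, 11 by the 5 lists other than FOXP1 at E18.5, and 6 belonged to 1 list. Peaks covered 35.9% of its window for ARID1B, 49.1% for FOXP1, and 31.3% for TCF7L2 in the E15.5 lists, followed by 33.4%, 5.84%, and 47.9% at E18.5.

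By fold, the strongest peak at its start was that of FOXP1 at E15.5. At the first TSS the fold was 4.99 for ARID1B, 13.3 for FOXP1, and 8.07 for TCF7L2 in the E15.5 lists, followed by 5.75, 7.03, and 8.54 at E18.5. The FOXP1 value of E15.5 had an interval of 10.9 to 16.1 and was at the percentile 94.5 of its list, in a peak of 4914 bp. The TCF7L2 value of E18.5 was at the percentile 94.7 of its own list. The promoter sequence is given because 5 of the 6 summits fell in it, from 121 bp before to 30 bp after the TSS. It spans chr7:79499776-79500075 on the + strand (RefSeq, GRCm38.p6), 250 bases before to 50 bases from the TSS. Capitals run from the first to the last of these summits. It holds 35 CG dinucleotides and is 75.0% G or C.
Mir9-3hg promoter: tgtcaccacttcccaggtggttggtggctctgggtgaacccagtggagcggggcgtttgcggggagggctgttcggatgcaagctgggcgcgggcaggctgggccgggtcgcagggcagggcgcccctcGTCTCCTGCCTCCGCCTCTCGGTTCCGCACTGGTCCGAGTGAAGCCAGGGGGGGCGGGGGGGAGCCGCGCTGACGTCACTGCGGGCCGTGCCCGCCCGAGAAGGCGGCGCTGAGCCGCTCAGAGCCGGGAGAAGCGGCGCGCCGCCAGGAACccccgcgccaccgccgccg

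The Mir9-3 hairpin was in a peak in all 6 lists, which held for 98 of 2202 miRNA genes (4.45%). In these peaks the fold was 5.17 for ARID1B, 11.6 for FOXP1, and 7.75 for TCF7L2 in the E15.5 lists, followed by 4.77, 8.21, and 8.76 at E18.5. Every summit lay before the hairpin, 200, 213, and 334 bp from its start at E15.5, followed by 96, 247, and 149 bp at E18.5. The peaks covered all 90 bases of the hairpin in 4 lists, 31 bases for ARID1B at E18.5, and 5 bases for FOXP1 at E18.5. The window chr7:79504899-79505198 (+ strand, GRCm38.p6) is shown because it holds all 6 summits and ends before the hairpin, with capitals from the first summit to the last. It is 73.0% G or C and holds 38 CG dinucleotides, close to the promoter.
Mir9-3hg hairpin peak: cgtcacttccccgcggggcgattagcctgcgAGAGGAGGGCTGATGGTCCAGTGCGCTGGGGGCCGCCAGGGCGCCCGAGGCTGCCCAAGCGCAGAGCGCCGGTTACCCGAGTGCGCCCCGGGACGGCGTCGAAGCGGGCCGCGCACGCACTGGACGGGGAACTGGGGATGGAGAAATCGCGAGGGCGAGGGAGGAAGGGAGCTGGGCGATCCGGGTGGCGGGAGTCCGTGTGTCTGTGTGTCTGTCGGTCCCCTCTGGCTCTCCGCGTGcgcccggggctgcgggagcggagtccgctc

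Of the 6 places in all lists, the one upstream of the gene had the closest summits. There, 3706 to 3758 bp before the first TSS, the strongest summits of the 6 lists lay within 52 bp of each other. The fold was 4.81 for ARID1B, 8.86 for FOXP1, and 6.82 for TCF7L2 in the E15.5 lists, followed by 5.89, 7.62, and 6.57 at E18.5. Another place shared by all 6 lists, 5817 to 5995 bp before the TSS, was weaker, with folds of 2.95 to 5.44. The window chr7:79496194-79496393 (+ strand, GRCm38.p6) is shown with the stretch between the first and the last summit in capitals. It is 56.5% G or C. The letters CATCTG, an E-box, are at chr7:79496314-79496319 inside the capitals, and GGACAGC, one part of the RE1 element that REST recognizes, is at chr7:79496230-79496236. The other part, TTCAGCACC, was not in this window.
Mir9-3hg upstream peak: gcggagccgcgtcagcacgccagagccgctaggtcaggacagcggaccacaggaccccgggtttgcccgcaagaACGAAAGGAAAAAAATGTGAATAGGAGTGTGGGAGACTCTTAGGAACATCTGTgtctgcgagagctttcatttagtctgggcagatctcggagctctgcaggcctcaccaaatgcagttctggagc

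The highest peaks further into the gene body were at 20.4 and 26.0 kb. In an intron 20.4 kb after the TSS, ARID1B had the highest fold at both stages, 8.55 at E15.5, then 7.85 at E18.5. FOXP1 had 7.21 at E15.5, and TCF7L2 had 5.56 at the earlier stage and 6.68 at the later. The interval of ARID1B at E15.5 ran from 6.94 to 10.4 and overlapped those of the other lists. At 26.0 kb, before the TSS of a short inner transcript, the fold was 6.50 for ARID1B, 7.09 for FOXP1, and 8.80 for TCF7L2 in the E15.5 lists, and 7.15 for ARID1B and 8.65 for TCF7L2 at E18.5. FOXP1 at E18.5 had no peak at either place.

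Past the 3′ end, 35.6 kb after the first TSS, a peak at the promoter of Gm35040, a lincRNA gene on the same strand, was present in all 6 lists. Its fold was 7.84 for ARID1B, 9.49 for FOXP1, and 8.90 for TCF7L2 in the E15.5 lists, followed by 8.28, 6.74, and 10.6 at E18.5. The TCF7L2 peak of E18.5 was at the percentile 98.5 of its list and was the highest peak of TCF7L2 in any of the 3 windows. Further places were 43.9 kb after the TSS, with folds of 3.65 to 6.24 in 5 lists, and 47.3 kb after it, with folds of 4.10 to 7.09 in all 6. Of the unclassified transcripts inside Mir9-3hg, the promoters of 2900037B21Rik and Gm37608 had a peak in 5 lists and that of A330074H02Rik in 3, with folds of 3.68 to 5.56. None of these had a FOXP1 peak at E18.5. Just outside the window, 13.2 and 12.8 kb beyond its left edge, stood peaks of FOXP1 and TCF7L2 at E18.5 with folds of 15.1 and 12.7, above every peak of those lists inside it. The outermost peaks inside that edge had folds of 3.94 and 4.05.

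**Figure D3:**
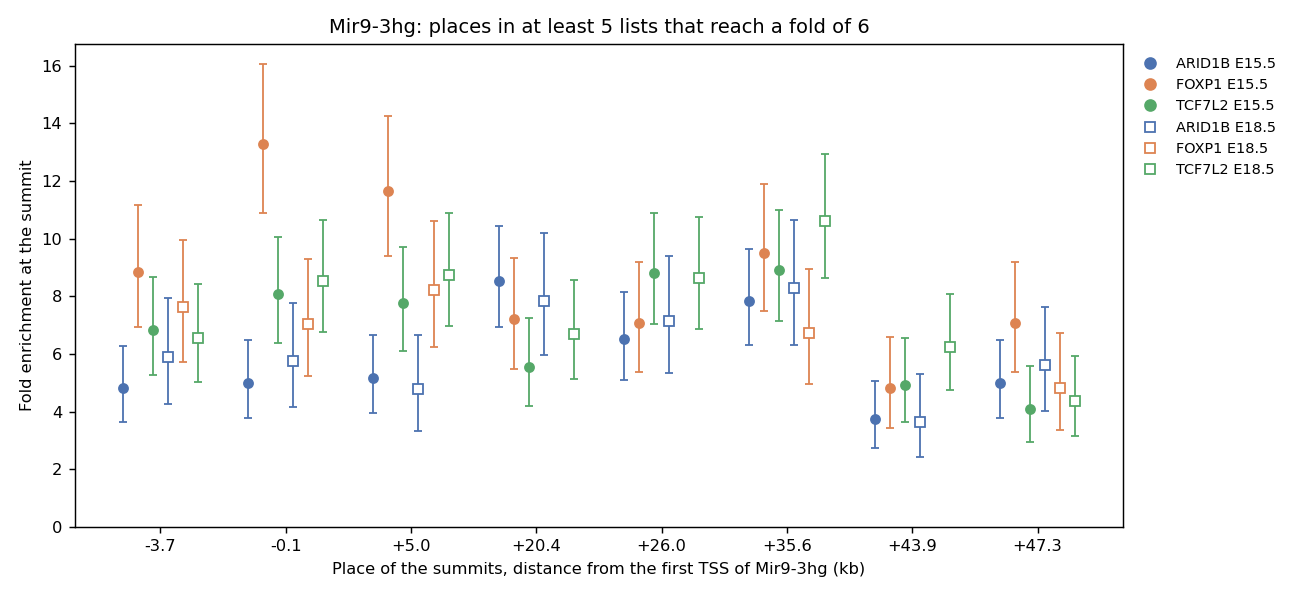
Fold enrichment at the summit (y axis) at the 8 places of Mir9-3hg that were found in at least 5 lists and reached a fold of 6 in at least 1, by distance from the first TSS in kb (x axis). Points are single lists with exact 95% Poisson intervals, filled circles E15.5 and open squares E18.5. The FOXP1 points of E15.5 at the start (13.3) and the hairpin (11.6) stand highest, and the 3 places without an orange square lack a FOXP1 peak at E18.5.

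The promoter was taken as the 2000 bp upstream of any TSS of a gene. All 3 genes had a promoter peak in each of the 6 lists. The share of the 10155 long non-coding genes with one was 26.3% for ARID1B, 27.6% for FOXP1, and 21.1% for TCF7L2 in the E15.5 lists, followed by 24.9%, 17.7%, and 25.7% at E18.5. All 3 TRs were at the promoter of each member at both stages, and of 19.6% of long non-coding genes at E15.5, against 16.5% at E18.5. The number of members fell to 2 at both stages with −log10 p of at least 15, and at E18.5 also with a fold of at least 4 or with every list reduced to the size of the shortest. Mir124-2hg was the weakest, and its FOXP1 peak of E18.5 had a fold of 3.94, was at the percentile 4.71 of its list, and lay 3851 bp after the first TSS, at an inner start site. A promoter peak in all 6 lists was found for 15.7% of long non-coding genes, for 43 of the 116 that hold a miRNA gene on the same strand (37.1%), and for 51.8% of protein-coding genes. These shares are the background of a choice already made and carry no test.

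By promoter peak, Mir9-3hg was the highest of the 3 in 4 lists and Mir124a-1hg in ARID1B at E15.5 and FOXP1 at E18.5. For ARID1B and TCF7L2 at both stages the promoter peak of Mir9-3hg was the one at 26.0 kb, before the inner transcript. With the peak at its first TSS instead, ARID1B at E18.5 had a fold of 5.75, under the 6.31 of Mir124a-1hg. In Mir9-3hg the strongest promoter peak had a fold of 6.50 (interval 5.11 to 8.16) for ARID1B, 13.3 (10.9 to 16.1) for FOXP1, and 8.80 (7.04 to 10.9) for TCF7L2 in the E15.5 lists. At E18.5 it had 7.15 (5.35 to 9.39), 7.03 (5.22 to 9.29), and 8.65 (6.86 to 10.8). In Mir124a-1hg the fold was 7.30 (5.82 to 9.05), 11.3 (9.06 to 13.8), and 7.02 (5.46 to 8.90) at E15.5, followed by 6.31 (4.62 to 8.42), 7.47 (5.60 to 9.80), and 7.12 (5.50 to 9.06) at E18.5. In each list the intervals of these 2 genes overlapped. Overlap does not show that 2 values differ by counting error only, and the difference was not tested.

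Mir124-2hg was lower. Its strongest promoter peak had a fold of 4.81 (3.63 to 6.27), 5.44 (3.96 to 7.31), and 4.10 (2.94 to 5.58) at E15.5, followed by 4.21 (2.86 to 5.98), 3.94 (2.64 to 5.69), and 4.71 (3.42 to 6.32) at E18.5. Its intervals lay wholly below those of Mir9-3hg for FOXP1 and TCF7L2 at E15.5 and for TCF7L2 at E18.5. Against long non-coding genes with a promoter peak in the same list, Mir9-3hg was at the percentiles 80.7 to 86.9 in 5 lists and 43.5 for FOXP1 at E18.5. Mir124a-1hg was at 48.2 to 88.1 and Mir124-2hg at 1.72 to 51.1. In its whole list, the strongest promoter peak of Mir9-3hg ranked 8449, 3358, and 1703 by fold at E15.5, followed by 7814, 8685, and 2494 at E18.5. That of Mir124-2hg ranked between 14442 and 33193 in the 6 lists. For FOXP1 at E15.5 the promoter peak of Mir124a-1hg was the one of 7436 bp, whose summit is at the 3′ end of the gene.

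**Figure D4:**
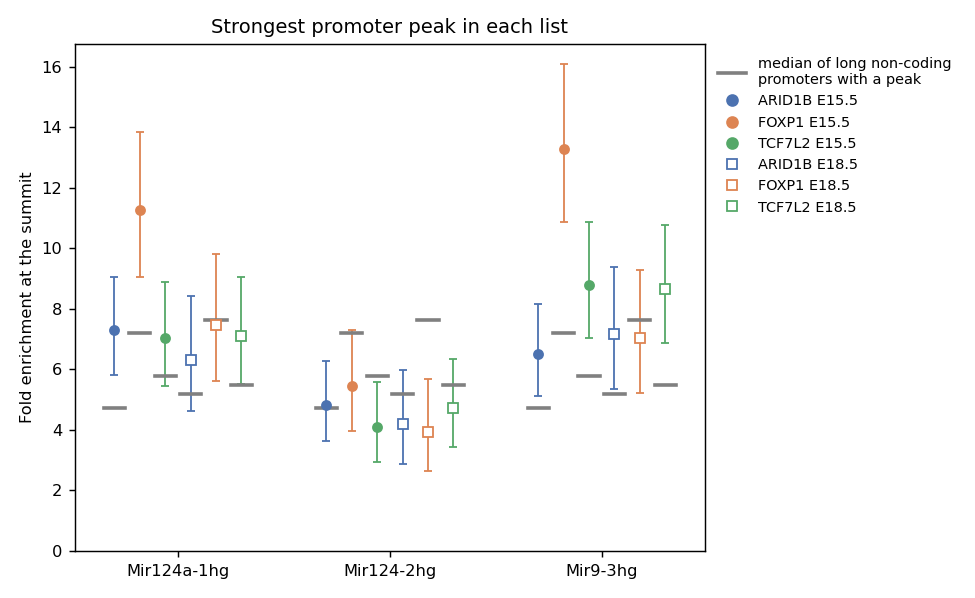
Fold enrichment (y axis) of the strongest promoter peak of each member (x axis) in each list, with exact 95% Poisson intervals. Grey bars are the median over all long non-coding promoters with a peak in that list, from 4.73 for ARID1B at E15.5 to 7.62 for FOXP1 at E18.5. Mir124-2hg is below Mir9-3hg and Mir124a-1hg in every list.

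All 3 TRs met at fewer loci of Mir9-3hg and Mir124-2hg at E18.5 than at E15.5. A locus here joins all peaks of a stage that overlap, whichever the TR. In Mir9-3hg, 18 of 37 loci held all 3 TRs at E15.5, and 6 of 35 did at E18.5. In Mir124a-1hg the numbers were 2 of 7 and 3 of 7, and in Mir124-2hg 4 of 8 and 2 of 6. Over the whole lists the share was 30.1% of 83128 loci at E15.5, against 22.9% of 81092 at E18.5, so that it was lower at the later stage there too. With only peaks of a fold of at least 4, the loci of all 3 TRs in the 3 windows numbered 12 and 9 in place of 24 and 11. With every list reduced to the size of the shortest, they numbered 11 and 8.

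With a fold of at least 4, the 3 windows held 18 peaks for ARID1B, 23 for FOXP1, and 18 for TCF7L2 in the E15.5 lists, followed by 26, 11, and 21 at E18.5. With a fold of at least 6 they held 6, 10, and 7 at E15.5, followed by 5, 7, and 10 at E18.5. Every one of the 14 FOXP1 peaks of E18.5 overlapped a FOXP1 peak of E15.5, as 96.3% of that whole list did. In the other direction, 11 of the 53 FOXP1 peaks of E15.5 overlapped one of E18.5, beside 34.2% of the whole list. Peaks of E15.5 without one at E18.5 included the exon of Mir124-2hg at 8.7 kb (6.33) and the intronic places of Mir9-3hg at 20.4 kb (7.21) and 26.0 kb (7.09). The part of sequencing depth in these differences was not tested.

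The other copies of the same miRNAs were bound as well. The third miR-124 copy, Mir124a-3 at chr2:180894040-180894107, had its hairpin in a peak in all 6 lists, with folds of 7.13, 12.7, and 7.44 at E15.5, followed by 6.73, 7.47, and 7.77 at E18.5. In the 20 kb on either side of it lay 20 peaks, against 45 around Mir124a-1 and 34 around Mir124a-2. A peak within 20 kb in all 6 lists was found for 40.3% of all miRNA genes. The miR-9 copies each had over 100 peaks in that span, 105 around Mir9-3, 122 around Mir9-1, and 107 around Mir9-2. Only Mir9-3 had its hairpin in a peak of all 6 lists, while Mir9-1 had 1 list with a fold of 3.29 and Mir9-2 had 2 lists with folds of 11.6 and 4.27.

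The lncRNA hosts of the other miR-9 copies had a promoter peak in all 6 lists too. For Gm3764, the host of Mir9-1, the fold was 10.1, 12.02, and 9.43 at E15.5, followed by 11.2, 7.91, and 9.41 at E18.5. For C130071C03Rik, the host of Mir9-2, it was 6.24, 13.0, and 8.38 at E15.5, followed by 6.73, 6.30, and 8.65 at E18.5. FOXP1 was the highest of the 3 TRs at E15.5 at all 3 miR-9 hosts. FOXP1 was also the highest in the medians over all long non-coding promoters with a peak at that stage, 7.21 for FOXP1 against 4.73 for ARID1B and 5.77 for TCF7L2, so that it was not particular to these hosts. Folds of different TRs carry the depth and the antibody of each list, and the order of TRs was not tested.

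**Figure D5:**
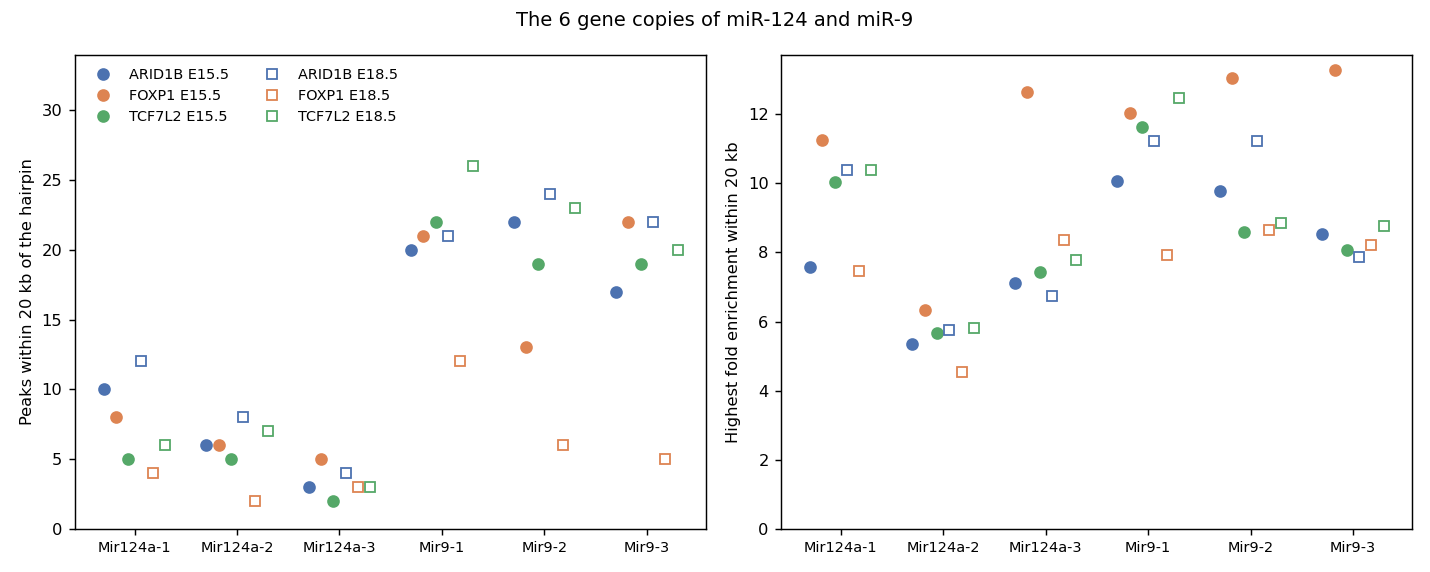
Number of peaks (left panel, y axis) and highest fold enrichment (right panel, y axis) within 20 kb of the hairpin of each of the 6 gene copies of miR-124 and miR-9 (x axis), 1 point per list, filled circles E15.5 and open squares E18.5. The miR-9 copies have 105, 122, and 107 peaks over the 6 lists and the miR-124 copies 45, 34, and 20.

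Other miRNA genes active in neurons varied widely. Of 11, 7 had a peak within 20 kb of the hairpin in all 6 lists and 4 had the hairpin in a peak in all 6, namely Mir128-2, Mir132, Mir212, and Mir137, beside 40.3% and 4.45% of all miRNA genes. Mir132 and Mir212 are neighbors and share their peaks. The total of peaks ran from 0 for Mir128-1 and Mir138-1 to 63 for Mir132, with a median of 30. The 105 peaks around Mir9-3 were above all 11, as were the 122 around Mir9-1 and the 107 around Mir9-2.

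Listed genes that make and receive these miRNAs had peaks of the same TRs at their promoters. In developing human cortex, the paper reports higher expression with more of its TRs at an open promoter. A share among expressed genes only was not computed here. All 10 genes of miRNA biogenesis had a promoter peak in all 6 lists, beside the 51.8% of protein-coding genes given above. The list holds Drosha and Dgcr8, which cut the hairpin, Xpo5, which exports it, Dicer1, Tarbp2, and Prkra, which process it, and the 4 Argonaute genes, whose proteins carry the mature miRNA. Their median fold was 6.59 for ARID1B, 13.5 for FOXP1, and 8.17 for TCF7L2 in the E15.5 lists, against 5.17, 10.6, and 6.398 over all protein-coding promoters with a peak. At E18.5 it was 6.59, 10.3, and 7.66. Ago4 was the lowest, with a fold of 3.48 for TCF7L2 at E15.5, and Ago3 reached the highest value, 17.8 for FOXP1 at E15.5.

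All 13 known targets of miR-124 or miR-9 that were listed also had a promoter peak in all 6 lists. At E15.5 their median fold was 6.59, 10.8, and 8.49, beside the protein-coding medians given above. At E18.5 it was 7.29, 6.74, and 8.76, against 5.61, 8.65, and 6.57 over all protein-coding promoters with a peak. Single targets lay on both sides of these medians, from 3.94 for Nr2e1 to 16.6 for Ptbp1 for FOXP1 at E18.5. Actl6a, the BAF subunit of progenitors, had a FOXP1 fold of 22.4 at E15.5, against 9.98 at E18.5. At Foxp1, a target of miR-9 and the gene of a profiled TR, the FOXP1 fold was 14.9 and 13.1. Rest, the repressor of both miRNA families, had folds of 4.37, 7.59, and 8.49 at E15.5, followed by 4.49, 6.74, and 9.30 at E18.5. The lowest FOXP1 value of the list at E15.5 was 5.19, at Dlx2, a gene of interneuron precursors.

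The genes with promoter peaks most like those of each member were sought by the percentile of the strongest promoter peak in the 6 lists, among 13868 to 13870 genes with a promoter peak in all 6, as the Euclidean distance in percentile points. Closest to Mir124a-1hg were Trabd and 1810021B22Rik, which share 1 set of peaks, at a distance of 3.10, and Bcl2l11, a gene of programmed cell death, at 5.12. For Mir124-2hg the nearest were Thsd7a at 11.97, Cntnap4, of the contactin-associated family, at 13.2, and Sulf2, an enzyme acting on heparan sulfate, at 13.5. Spg20 was nearest to Mir9-3hg, at 4.95, followed by Mirlet7i, a miRNA gene of the let-7 family, and D630033A02Rik, which share 1 set of peaks, at 5.44. The distances describe 6 values per gene and say nothing of function.

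Motif letters were counted on both strands in the 200 bp around each summit of the 64 promoter peaks of the members. The forkhead core TGTTTAC was in 1 of the 64 (1.56%), beside 1.98% to 3.49% of all peaks in the 6 lists. TCAAAG, the core that TCF and LEF proteins bind, was in 6 (9.38%), beside 8.47% to 11.2%. CATCTG was in 19 (29.7%), beside 14.4% to 28.9%, and CAGCTG, another E-box, in 5 (7.81%), beside 13.1% to 19.6%. Of the parts of RE1, TTCAGCACC was in none, beside 0.259% to 0.316%, and GGACAGC in 1 (1.56%), beside 4.37% to 5.45%. Among 32851 RefSeq promoters of 300 bases, these shares were 3.65%, 16.0%, 17.2%, 16.3%, 0.371%, and 6.56% in the same order. Over all 260 peaks of the 3 windows the shares were 2.31%, 11.2%, 22.7%, 15.8%, 0%, and 5.38% in the same order, and all but that of TTCAGCACC lay within the ranges of the lists. The 5 promoter windows with CAGCTG were all in Mir124a-1hg. No motif contains another, and peaks of several lists at 1 place share their letters, so that the 64 windows are not independent.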

How the data were processed

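Embryonic cortex of wild-type mice had been profiled by ChIP-seq for ARID1B, FOXP1, and TCF7L2, and 6 deposited lists of peaks were used, 1 per TR and stage. Reads had been aligned by the authors with BWA 0.7.15 (GRCm38, mm10) and filtered on mapping quality. Narrow peaks came from MACS2 2.2.7, run against the matched input without a model or local background, per replicate and then on merged replicates. The lists, each attached to the first replicate, were read as the merged ones. Any handling of duplicates is not given in the sources used. The authors' files give a ratio of reads at the summit to background (fold enrichment, with a pseudocount of 1 read), −log10 of its p-value and q-value, and a score, which was not used.

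The background and the worth of 1 read were recovered from the deposited folds and p-values with the Poisson model of the caller, which fitted every list, and gave the reads at each summit and exact 95% intervals (Python 3.11.15, NumPy 2.4.6, SciPy 1.17.1, pandas 2.3.3). Recovery and overlap were tested on simulated data. The smaller library was estimated at 26.3 to 80.7 M reads, and the ChIP library at 46.9 to 94.3 M. Depth of single replicates is not known from the lists.

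Coordinates are counted from 1, and 191 peaks outside chromosomes 1 to 19, X, Y, and M were left out. Genes were those of GENCODE vM21. Percentiles are the share of the list with a lower value. Places are summits within 500 bp of the next and were defined after the peaks were seen. The members, gene lists, and motifs were chosen with earlier results of these data known. Named genes were the members, neighbors whose promoter a peak touched, all listed genes, and the 3 genes most like each member that share no peak with it. The values of 1 listed gene are not reported here. Sequences came from RefSeq tables and the GRCm38.p6 genome. No test was run, because each group has 1 list. Alternatives changed the flank, overlap, threshold, list size, gene models, promoter, and rank measure.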

Additional observations from a re-analysis of the deposited data

How the results depend on the processing

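Of 132 values computed under other settings, 106 stayed within 1.5 times the count or within the counting interval, and 26 moved. Numbers below are in the order ARID1B, FOXP1, and TCF7L2 at E15.5, then at E18.5. Peaks over the 3 loci fell with no flank to 28 for ARID1B and 32 for FOXP1 at E15.5, and to 36, 7, and 34 at E18.5. With −log10 p of at least 15 they were 14, 18, 13, 13, 6, and 14. With a fold of at least 4 they were 18, 23, and 18, then 26 for ARID1B and 21 for TCF7L2 at E18.5. With each list reduced to the 24872 peaks of the shortest, they were 14 and 18 for ARID1B and FOXP1 at E15.5 and 13 and 31 for ARID1B and TCF7L2 at E18.5. Loci of all 3 TRs at E15.5 numbered 24 and fell to 8, 12, and 11 under these 3 thresholds in the same order, and at E18.5 they numbered 11 and fell to 5, 9, and 8 under the same thresholds and to 6 with no flank. The number of members with a promoter peak of all 3 TRs went from 3 to 2 with −log10 p of at least 15 at both stages, and at E18.5 also with a fold of at least 4 and with the shortened lists. These drops lay at the limit of 1.5 times and were counted among the 106. With a promoter of 1000 bp, the fold of Mir9-3hg for ARID1B at E15.5 went from 6.50 to 4.99, since the peak at 26.0 kb no longer counted. No other promoter fold moved. A promoter with 500 bp added downstream kept every peak, so that its 20 values, counted among the 106, could only stay or rise. The 18 ranks by −log10 p, counted among the 106, were bound to lie close to those by fold, since both come from the same reads and 1 background. They say nothing of stability. The ranks differed for Mir124a-1hg with TCF7L2 at E15.5 (4843 by fold, 4596 by p) and for Mir124-2hg with FOXP1 at E18.5 (22781 by fold, 21645 by p). No paired analysis was possible because there is 1 list per TR and stage, read as that of merged replicates, and leaving out a replicate could not be run for the same reason.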
